A study of Homo sapiens with 42 samples.

Results

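Whether quizartinib and everolimus, given together, changed messages by more or by less than the sum of their single effects was asked with 12 of the 42 libraries of the series. These are the input (total poly(A)) RNA libraries of MOLM-13 cells, an established acute myeloid leukemia line that carries the FLT3-ITD mutation, grown in hBMSC-CM, a medium conditioned by the HS-5 human bone marrow stromal cell line. The members were chosen by their labels: 3 libraries each of vehicle, 3 nM quizartinib (AC220, a FLT3 kinase inhibitor), 10 nM everolimus (an inhibitor of the kinase complex mTORC1) and both drugs (the combination), all treated for 12 hours. The interaction of a gene is the log2 change from everolimus to the combination minus the log2 change from vehicle to quizartinib. A positive value says that the combination held more of the message than the summed single-drug changes give, and a negative value that it held less. The heavy polysome libraries of the same 4 arms, which hold messages carrying several ribosomes, gave the same measure in a further 12 libraries, and all 42 libraries entered 1 model. One cell line and the medium of 1 stromal line were used, and everolimus without quizartinib was measured in hBMSC-CM alone.

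FLT3-ITD is a receptor kinase that signals without its ligand and drives STAT5, RAS-ERK and PI3K-AKT signaling. AKT activates mTORC1, which promotes ribosome production, the translation of ATF4 (the transcription factor of amino acid supply genes) and the processing of SREBP, the factor that switches on sterol and fatty acid synthesis. AKT also keeps FOXO factors out of the nucleus, so FOXO targets are known to rise when the pathway is blocked. Quizartinib acts at the top of this route and everolimus at mTORC1, and a 2 by 2 design measures both effects on each shared target.

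The 12 input libraries held 19439370 to 35979303 counts. Values below are CPM, counts scaled to a common library total with TMM factors, which compare a gene between libraries and not genes with each other, and are shares of a library's RNA, since no spike-in was used. In bulk RNA, fewer cells of a type and less RNA per cell cannot be told apart. Summed levels of 15 myeloid leukemia identity markers were 7620 to 13700 CPM under the combination and 12200 to 24000 CPM in the other input arms. The 20 stromal markers summed to 12.7 to 93.1 CPM, with COL1A1 (a collagen of stromal cells) at 0.613, 0.734 and 0.551 CPM under vehicle, 4.05, 17.9 and 13.99 under quizartinib, 2.01, 1.71 and 1.27 under everolimus and 3.79, 20.3 and 10.6 under the combination, so that this marker was higher in both quizartinib arms.

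The everolimus libraries stood apart from the others, and every interaction below rests on them. The median SD of log2 CPM between libraries of an arm was 0.0716 for everolimus and 0.220 to 0.267 for the other input arms, and 0.111 against 0.352 to 0.419 in heavy polysome RNA. Libraries with the same replicate number deviated together in the vehicle, quizartinib and combination arms, with correlations of 0.41 to 0.66 across genes in input RNA. Those of the everolimus libraries with any other arm were -0.059 to 0.0023. The share of mitochondrially encoded counts showed the same break: it was 7.05% to 8.02% in replicate 1 of the other 3 arms and 3.67% in replicate 1 of everolimus. The chi-square per degree of freedom between 2 libraries' counts was 4.96 to 7.51 among the everolimus input libraries and 61.5 to 223 within the other hBMSC-CM arms. A value above counting noise does not tell separate cultures from repeat libraries of 1 culture. The study describes its replicates as biological, so the 3 were kept as 3 samples, and results with them counted as 1 sample are given as well. For its polysome profiles the study states fewer replicates for everolimus in hBMSC-CM than for every other group. The labels do not say how the cultures were set up, p-values measure the spread between these samples, and the everolimus treatment and the set its libraries came from cannot be told apart.

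**Figure D1:**
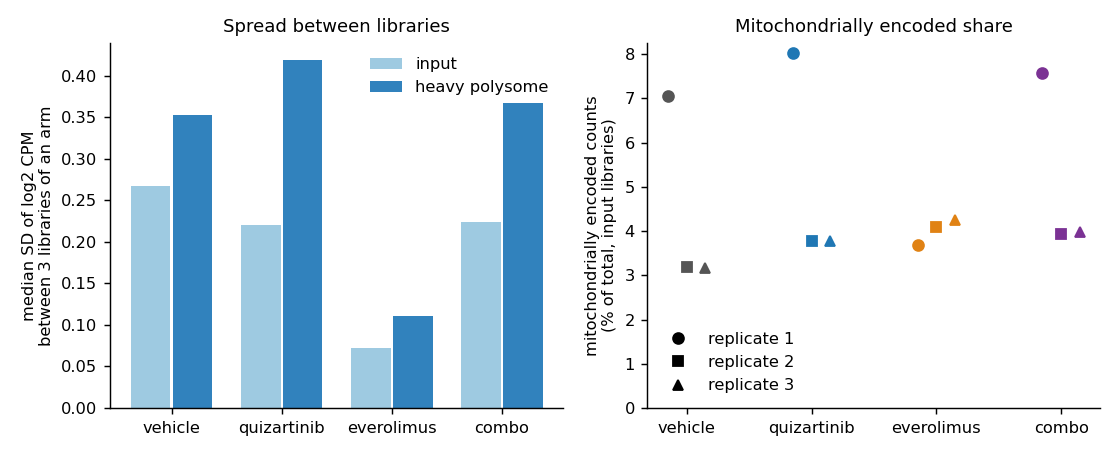
Left, the median over genes of the SD of log2 CPM between the 3 libraries of each hBMSC-CM arm, for input and heavy polysome RNA; right, the mitochondrially encoded share of counts (%) in each of the 12 input libraries, with a marker shape for each replicate number. The everolimus bars are the lowest in both fractions (0.0716 and 0.111), and replicate 1 is high in every arm other than everolimus.

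Heavy polysome libraries 2 and 3 of everolimus also held counts of epithelial genes. KRT7, a keratin of simple epithelia, had 7, 1980 and 3805 counts in everolimus polysome libraries 1, 2 and 3, and at most 8 counts in the everolimus input libraries. A list of 18 epithelial markers, written after keratin counts had been seen, summed to 35.6, 155 and 268 CPM of total counts in these 3 libraries and to 23.4 to 52.9 CPM in the 18 polysome libraries of all other groups. Of its defining members, EPCAM and CLDN4 had 0 counts in all 3. In the everolimus input libraries the sum was 27.1 to 28.4 CPM, within the 14.9 to 37.1 CPM of the other input libraries, so the 12 input libraries did not show this. Several results in heavy polysome RNA are therefore also given without these 2 libraries, and the rest include them.

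In input RNA no gene passed the test for an interaction. Of 12939 genes, 0 (0%) had an adjusted p under 0.05 with edgeR's quasi-likelihood test and Benjamini-Hochberg adjustment, and the smallest adjusted p was 0.453. At an unadjusted p under 0.05 there were 65 positive genes (0.502%) and 148 negative genes (1.14%). limma voom called 0 genes and DESeq2 called 2, the unnamed transcripts AP003774.1 and AC011462.3, both negative and chosen here after their values were seen. The median interaction over all genes was -0.01, with a median SE of 0.42. The precision differed by gene: the 95% interval of the interaction lay within 1 log2 unit of 0 for 5226 genes (40.4%), and for 4912 of the 8586 genes (57.2%) that averaged 10 CPM or more. For the remaining genes the interval reached a 2-fold departure from the sum.

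The 2 quizartinib effects that the interaction sets against each other share no library. Quizartinib against vehicle changed 1591 genes (12.3% of those tested), of which 706 rose (5.46%) and 885 fell (6.84%), and the combination against everolimus changed 1437 (11.1%), of which 461 rose (3.56%) and 976 fell (7.54%). The first count was 2678 with the replicate number as a block, which pairs vehicle and quizartinib libraries. Of the genes that rose, 290 were called in both comparisons, which is 41.1% of the first list and 62.9% of the second. Of those that fell, 634 were shared, 71.6% and 65.0% of the lists, and 0 genes were called in opposite directions. Everolimus changed far fewer genes, 53 (0.41%) without quizartinib, 29 that rose (0.224%) and 24 that fell (0.185%), and 31 (0.24%) on top of it, all of which fell. The second of these counts was 154 with the block, since the numbers also pair quizartinib and combination libraries. The 4 genes that fell in both were HSPA5, the main chaperone of the endoplasmic reticulum, FKBP4, a co-chaperone of HSP90, IDI1, an enzyme of cholesterol synthesis, and CCDC86, a nucleolar protein, all named here after the counts were seen. When the everolimus libraries were counted as 1 sample, 1151 and 274 genes passed for quizartinib, and 0 and 7 for everolimus.

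Genes that quizartinib moved in RPMI, the medium without stromal factors, were used to place the 2 effects on a list drawn from other libraries. Of all genes tested 34.6% changed there, with 16.6% raised and 18% lowered. The 2149 genes raised in RPMI had a median log2 change of 0.66 for quizartinib without everolimus and 0.56 under it, with a median interaction of -0.11 and 772 positive members. For the 2328 genes lowered in RPMI the medians were -0.66 and -0.69, with a median interaction of -0.04 and 1025 positive members. Over all genes tested 6240 of 12939 interactions were positive.

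**Figure D2:**
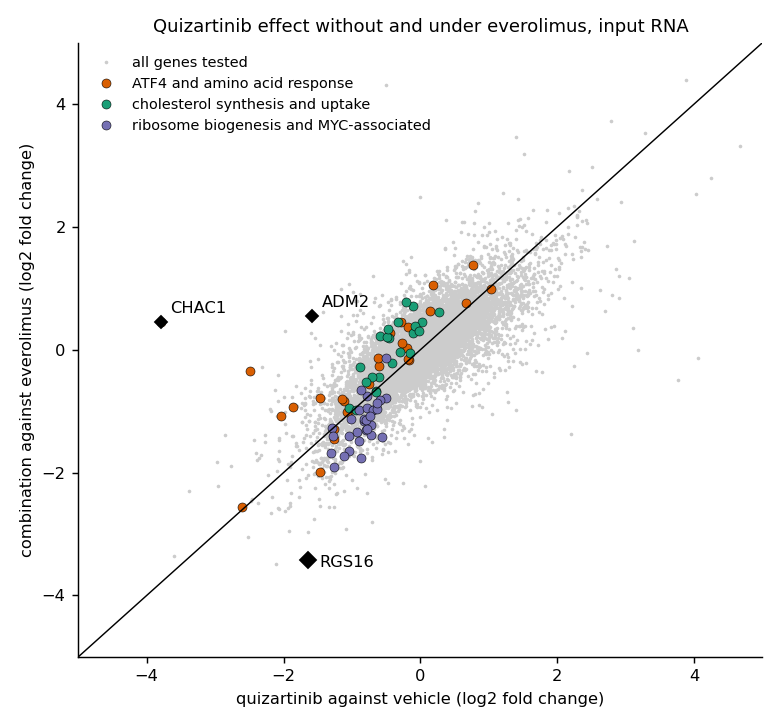
Each point is 1 of 12939 genes in input RNA, with the log2 change from vehicle to quizartinib on the horizontal axis and from everolimus to the combination on the vertical axis; the line marks equal changes, and vertical distance from it is the interaction. Colored points are members of 3 gene lists, and black diamonds mark ADM2, CHAC1 and RGS16, at interactions of 2.13, 4.23 and -1.78, none of which passed the test across all genes.

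RGS16, which speeds up the shut-off of G protein signaling, had the smallest p of the negative interactions where the 12 input libraries averaged 10 CPM or more. It was measured at 49.8, 54.6 and 63.4 CPM under vehicle, 13.9, 15.4 and 24.6 under quizartinib, 134, 145 and 147 under everolimus and 8.72, 14.2 and 16.8 under the combination. The everolimus libraries were the highest and the combination libraries overlapped those of quizartinib. Replicate numbers pair these last 2 arms, and within each number the combination was the lower. RGS16 rose by 1.34 on the log2 scale under everolimus alone (adjusted p = 0.0471), fell by 1.64 under quizartinib (adjusted p = 0.000939) and fell by 3.42 when quizartinib was added to everolimus (adjusted p = 8.55e-08, edgeR). Its interaction was -1.78 ± 0.45 (SE), with a 95% interval of -2.70 to -0.86: the summed changes gave 44.5 CPM and the combination held 12.8 CPM (geometric mean). With an unadjusted p of 0.000383 and an adjusted p of 1 it did not pass. The gene lies at chr1:182598623-182604389, minus strand (GRCh38, as all positions here).

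TNFSF14, ZNF490 and RPS6KA4 shared with RGS16 an everolimus arm above vehicle and a combination arm below everolimus. TNFSF14 (the cytokine LIGHT) was at 19.03, 32.2 and 24.2 CPM under vehicle, 31.2, 38.1 and 33.2 under quizartinib, 49.04, 58.6 and 56.7 under everolimus and 21.7, 33.4 and 30.2 under the combination. Everolimus was thus high alone, and the combination overlapped quizartinib, though it was lower within each replicate number. Its interaction was -1.39 ± 0.45 (SE), unadjusted p = 0.00374. DENND1C, an activator of the RAB35 GTPase, was at 49.5, 53.6 and 56.9 CPM under vehicle, 80.1, 79.9 and 100.4 under quizartinib, 88.01, 86.05 and 83.1 under everolimus and 76.99, 76.6 and 99.9 under the combination. Vehicle was the low arm and the 3 drug arms overlapped, where the summed changes gave 139 CPM. DENND1C rose under quizartinib (0.70, adjusted p = 0.00211) and under everolimus (0.69, adjusted p = 0.027), while the change under the second drug was -0.02 and -0.04. Its interaction was -0.72 ± 0.21 (SE), unadjusted p = 0.00176, and part of its exons overlap CRB3 on the other strand. RPS6KA4 (the kinase MSK2) had -0.90 ± 0.29 (SE) and was highest under everolimus, at 94.4, 87.4 and 90.3 CPM. OLIG1, a transcription factor, had -0.79 ± 0.28 (SE) with 143, 123 and 151 CPM under quizartinib and 128, 137 and 147 under the combination, 2 arms that overlapped. ZNF490, a zinc finger protein, had -0.93 ± 0.29 (SE). AC145207.3, an unnamed transcript, had -0.99 ± 0.34 (SE) with the combination as its low arm, at 5.14, 7.36 and 8.15 CPM. None of these had an adjusted p under 1.

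The positive genes of the rule included some that each drug lowered and some where everolimus alone was the low arm. ACAT2, an acetyl-CoA acetyltransferase of the cholesterol pathway, was at 100.4, 104 and 128 CPM under vehicle, 55.7, 60.1 and 64.8 under quizartinib, 47.9, 48.5 and 46.9 under everolimus and 41.5, 39.4 and 37.0 under the combination. The arms stood in this order without overlap. ACAT2 fell by 0.88 under quizartinib (adjusted p = 0.000334) and by 1.21 under everolimus (adjusted p = 6.12e-05), while quizartinib on top of everolimus gave -0.28. Everolimus on top of quizartinib gave -0.62 (adjusted p = 0.0883, and 0.0304 with the replicate block). The summed changes gave 26.1 CPM where the combination held 39.3 CPM, an interaction of 0.60 ± 0.22 (SE), unadjusted p = 0.0103. The gene lies at chr6:159762045-159779112, plus strand, and its exons overlap those of TCP1 and SOD2 on the other strand.

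DDIT4, a brake on mTORC1 that stress induces, was at 166, 138 and 209 CPM under vehicle, 165, 140.2 and 281 under quizartinib, 87.1, 94.04 and 82.2 under everolimus and 155, 143 and 245 under the combination. Everolimus alone was low, and the combination overlapped vehicle and quizartinib. Quizartinib on top of everolimus raised DDIT4 by 1.05 (adjusted p = 0.00318), and its interaction was 0.86 ± 0.34 (SE), unadjusted p = 0.0159. MTHFD2, a mitochondrial folate enzyme, showed 121, 106 and 72.2 CPM under vehicle, 92.5, 87.97 and 65.9 under quizartinib, 70.6, 70.7 and 68.8 under everolimus and 113, 107 and 68.6 under the combination. Everolimus was below vehicle and within the ranges of quizartinib and the combination, with an interaction of 0.74 ± 0.29 (SE). SLC2A5, a fructose transporter, was at 80.9, 64.1 and 60.3 CPM under vehicle, 85.8, 80.1 and 94.4 under quizartinib, 39.96, 45.7 and 39.5 under everolimus and 90.0, 84.6 and 90.4 under the combination. Only everolimus was low, and quizartinib raised SLC2A5 on top of it by 1.08 (adjusted p = 0.00113), with an interaction of 0.74 ± 0.31 (SE). CIAO2A, of cytosolic iron-sulfur protein assembly, had 0.73 ± 0.29 (SE), MTFR2, a regulator of mitochondrial fission, 0.76 ± 0.30 (SE), RAD1, of the DNA damage clamp, 0.63 ± 0.26 (SE), and ITGB1BP1, an integrin-binding protein, 0.90 ± 0.36 (SE). Their unadjusted p lay between 0.0145 and 0.0207, and no adjusted p was under 1.

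**Figure D3:**
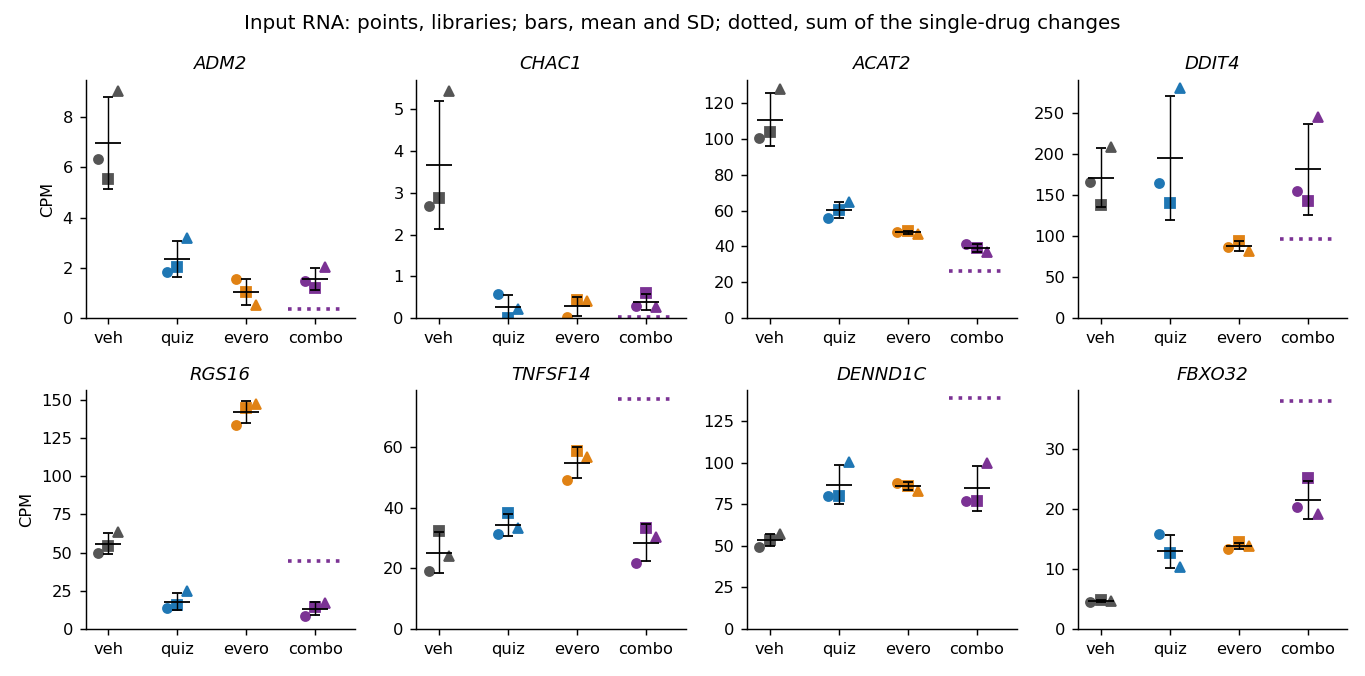
CPM in the 12 input libraries for 8 genes; points are libraries (circle, square and triangle for replicates 1, 2 and 3), black bars the mean and SD of 3, and the dotted line over the combination the level that the summed log2 changes of the 2 drugs give. For ACAT2 and DDIT4 the combination lies above the dotted line (39.3 against 26.1 CPM and 176 against 97.1 CPM), and for RGS16 and TNFSF14 below it (12.8 against 44.5 and 28.02 against 75.7 CPM).

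The amino acid response list held the member with the largest interaction of any list, CHAC1. Of 28 measured genes of the ATF4 and amino acid response list, 24 had a positive interaction, with a median of 0.35 beside -0.01 for all genes, and 0 were called. As a rule of order, the 3 differences from quizartinib to the combination within a replicate number were compared with those from any vehicle to any everolimus library. All 3 were above every one of these in 9 members, where this held for 3.62% of all genes. All 3 were below every one in 1, where this held for 7.03%. CHAC1, which degrades glutathione and is a sensitive ATF4 target, was at 2.69, 2.87 and 5.43 CPM under vehicle, 0.578, 0 and 0.221 under quizartinib, 0.0261, 0.427 and 0.412 under everolimus and 0.294, 0.605 and 0.260 under the combination. Vehicle was the only arm above 1 CPM, and the other arms rest on 0 to 24 counts a library. The combination overlapped both single drugs. Quizartinib lowered CHAC1 by 3.79 (adjusted p = 0.00496) and everolimus by 3.67 (adjusted p = 0.0475), while the second drug gave 0.45 and 0.56, neither of which passed. The interaction of 4.23 ± 1.28 (SE) (95% interval 1.63 to 6.83, unadjusted p = 0.00219) thus compares levels near the floor of 3 counts a library. ATF4 itself had 0.71 ± 0.44 (SE) and SLC7A11, the cystine importer, 0.60 ± 0.40 (SE), with overlapping arms for ATF4. ASNS, asparagine synthetase, stayed below the filter on low counts, with at most 25 counts in any library.

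ADM2, which encodes the secreted peptide intermedin and is no member of that list, also had vehicle as its high arm. It was at 6.33, 5.55 and 9.06 CPM under vehicle, 1.83, 2.04 and 3.19 under quizartinib, 1.56, 1.04 and 0.539 under everolimus and 1.47, 1.18 and 2.02 under the combination, from 17 to 345 counts a library. The combination overlapped everolimus and quizartinib, and vehicle was above all of them. Within each replicate number the combination was below quizartinib. With the replicate block everolimus on top of quizartinib gave -0.59 (edgeR adjusted p = 0.742). Quizartinib lowered ADM2 by 1.58 (adjusted p = 0.00662) and everolimus by 2.72 (adjusted p = 0.000378). The interaction in input RNA was 2.13 ± 0.56 (SE), unadjusted p = 0.000579 and adjusted p = 1: 0.351 CPM from the summed changes against 1.59 CPM measured. The gene lies at chr22:50481543-50486440, plus strand, and its exons overlap SBF1 on the other strand, whose reads could not be told apart if strand was not used.

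Sterol and fatty acid genes leaned the same way. In the cholesterol list 20 of 23 interactions were positive, with a median of 0.34, and in the fatty acid list 9 of 12, with a median of 0.49, again with 0 called. Everolimus alone lowered 8 of the 23 cholesterol genes and 3 of the 12 fatty acid genes, beside 0.185% of all genes. When it was added to quizartinib it lowered 1 and 0, beside 0.24% of all genes. With the replicate block that fits the second comparison these were 7 and 1, beside 1.1% of all genes, and with the everolimus libraries as 1 sample no gene was called under everolimus alone. None of these counts tests the interaction. HMGCS1, the synthase that feeds HMG-CoA reductase, was at 47.3, 57.2 and 58.1 CPM under vehicle, 25.1, 46.03 and 37.1 under quizartinib, 16.2, 16.4 and 14.8 under everolimus and 14.5, 21.9 and 19.2 under the combination. Everolimus and combination libraries overlapped at the low end. It fell by 1.78 under everolimus (adjusted p = 0.000407), and its interaction was 0.82 ± 0.38 (SE). SC5D, a late step of the pathway, had 0.77 ± 0.35 (SE). FADS2, a fatty acid desaturase, was at 37.1, 34.2 and 28.4 CPM under vehicle, 13.01, 19.2 and 12.9 under quizartinib, 8.29, 7.32 and 9.46 under everolimus and 10.1, 11.5 and 4.79 under the combination. Everolimus and the combination overlapped below the other arms, with an interaction of 1.21 ± 0.55 (SE). SCD, the stearoyl-CoA desaturase, fell under either single drug (-0.95, adjusted p = 0.0137, and -1.58, adjusted p = 0.00137) and had an interaction of 0.80 ± 0.37 (SE).

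Other lists leaned negative. In the ribosome biogenesis and MYC-associated list 27 of 31 interactions were negative, with a median of -0.34, and all 3 differences lay below in 11 members and above in 1, beside 7.03% and 3.62% of all genes. MYBBP1A, a MYB-binding nucleolar protein, was at 184, 218 and 188 CPM under vehicle, 79.2, 104 and 140.3 under quizartinib, 191, 172 and 179.8 under everolimus and 32.8, 59.8 and 68.05 under the combination. The combination was the low arm, and the quizartinib change was -0.87 without everolimus (adjusted p = 0.0998, and 0.0465 with the replicate block) and -1.76 under it (adjusted p = 0.00104). Its interaction was -0.89 ± 0.50 (SE), and that of PPRC1, a coactivator of mitochondrial genes, -0.86 ± 0.42 (SE). UMPS and CAD, which make pyrimidines, had -0.60 ± 0.25 (SE) and -0.68 ± 0.37 (SE). MYC had -0.45 ± 0.42 (SE), with 495, 499 and 517 CPM under everolimus and 274, 291 and 309.5 under the combination. Its raw counts were 20750, 13230 and 15208 under vehicle and 13966, 11668 and 8166 under quizartinib, in libraries of unlike depth. With the replicate block quizartinib without everolimus gave -0.35 for MYC (edgeR adjusted p = 0.302).

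The myeloid differentiation list had 20 of 27 negative interactions (median -0.29) and the identity list 11 of 14 (median -0.32), 2 lists that share LYZ. LYZ, the lysozyme of myeloid cells, was at 919.7, 859 and 627 CPM under vehicle, 983, 938 and 740.4 under quizartinib, 892, 911 and 937 under everolimus and 587, 593 and 501 under the combination. Only the combination was low, below every other library, and it fell under quizartinib on top of everolimus by 0.71 (adjusted p = 0.0417). Its interaction was -0.85 ± 0.33 (SE), unadjusted p = 0.0129. ELANE, neutrophil elastase, had -0.69 ± 0.33 (SE). Since these markers stand for the cell type of the culture, the sums given above for the identity list move with them, and their part in other results was not tested.

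FBXO32 and KLHL24 of the FOXO list rose under each single drug. FBXO32, a ubiquitin ligase, was at 4.46, 4.75 and 4.62 CPM under vehicle, 15.9, 12.6 and 10.4 under quizartinib, 13.3, 14.4 and 13.8 under everolimus and 20.4, 25.2 and 19.1 under the combination. The combination was the highest arm, yet below the 38.1 CPM of the summed changes. FBXO32 rose by 1.49 under quizartinib (adjusted p = 3.97e-05) and by 1.59 under everolimus (adjusted p = 0.000188), and its interaction was -0.85 ± 0.31 (SE), unadjusted p = 0.00959. KLHL24, a ubiquitin ligase adaptor, rose by 1.21 and 1.44 (adjusted p = 0.000489 and 0.000573) and had -0.61 ± 0.31 (SE). PIK3IP1, an inhibitor of PI3K, was at 3.38, 6.76 and 4.07 CPM under vehicle, 10.6, 13.2 and 9.43 under quizartinib, 9.64, 9.80 and 10.1 under everolimus and 20.5, 23.99 and 19.4 under the combination, with the combination on top at 21.3 CPM beside 23.8 CPM from the sum and an interaction of -0.12 ± 0.41 (SE). The list's median was -0.08, with 8 of 22 positive.

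Several strong drug targets lay close to the sum in input RNA. HSPA5 fell under everolimus alone (-1.24, adjusted p = 0.0312) and on top of quizartinib (-1.32, adjusted p = 0.0277), with an interaction of -0.08 ± 0.39 (SE) and a 95% interval of -0.88 to 0.71. CCNE1, cyclin E1, fell under quizartinib by 1.94 and under it with everolimus by 2.12 (adjusted p = 0.000114 and 2.7e-05), with an interaction of -0.18 ± 0.43 (SE). CDC6, a licensing factor of DNA replication, had -0.40 ± 0.42 (SE), and ATP5MC1, a c subunit of the ATP synthase, -0.27 ± 0.45 (SE). MANF and SDF2L1, chaperone partners in the endoplasmic reticulum, had -0.26 ± 0.49 (SE) and -0.33 ± 0.46 (SE). Of the STAT5 and RAS-ERK outputs, PIM1 had -0.18 ± 0.32 (SE), SOCS2 0.11 ± 0.29 (SE) and DUSP6 -0.10 ± 0.94 (SE). FLT3, the receptor's own gene, had 0.13 ± 0.37 (SE). Quizartinib lowered none of them in hBMSC-CM, so they are not among its strong targets here. With the replicate block their changes were 0.57, 0.38, 0.16 and 0.20 (edgeR adjusted p = 0.0281, 0.115, 0.845 and 0.541), and without it none passed. The intervals of these genes were wide: that of DUSP6 ran from -2.02 to 1.82. In heavy polysome RNA the interaction of HSPA5 ran from 0.50 to 1.26 over 24 alternatives of processing and samples. There CCNE1 ran from -0.72 to -0.24, ATP5MC1 from -0.89 to -0.19 and CDC6 from -0.40 to 0.38.

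MCL1, an inhibitor of apoptosis, had -0.09 ± 0.23 (SE), and BCL2L11 (BIM), a promoter of it, 0.68 ± 0.37 (SE). BCL2L11 was at 41.2, 32.7 and 25.2 CPM under vehicle, 70.2, 55.2 and 34.3 under quizartinib, 30.03, 29.1 and 29.5 under everolimus and 92.0, 77.9 and 58.4 under the combination. The combination overlapped quizartinib but was above it within each replicate number. With the replicate block everolimus on top of quizartinib gave 0.53 (edgeR adjusted p = 0.206). Quizartinib raised BCL2L11 on top of everolimus by 1.36 (edgeR adjusted p = 0.000663). Without everolimus its change was 0.69 (adjusted p = 0.08, and 0.00834 with the replicate block). PMAIP1 (NOXA), of the same family, had 1.26 ± 0.50 (SE) at 2.40 to 7.27 CPM. ATM and MTOR, the kinases at the head of the pathways, had -0.10 ± 0.49 (SE) and -0.25 ± 0.50 (SE). In heavy polysome RNA ATM ran from -0.29 to 0.45 and MTOR from 0.55 to 1.48 over 24 alternatives of processing and samples.

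Other fixed genes had single values near or below 1 SE in most cases. EGR1, an immediate early factor, had -0.55 ± 0.72 (SE), SPRY4, a feedback inhibitor of ERK, -1.15 ± 1.03 (SE), HK2, hexokinase 2, -0.26 ± 0.52 (SE), IRS2, an adaptor of the insulin pathway, -0.18 ± 0.40 (SE), TXNIP, a brake on glucose uptake, -0.54 ± 0.64 (SE), IDH3A, of the TCA cycle, -0.21 ± 0.24 (SE), and CYCS, cytochrome c, 0.54 ± 0.46 (SE). None of them passed.

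Split by replicate number, the medians of the 4 lists that leaned furthest were compared. Since the everolimus libraries did not follow the numbers, the mean of all 3 entered each number, so the values share that arm. They were 0.35, 0.28 and 0.39 for the ATF4 list, 0.30, 0.51 and 0.33 for cholesterol, 0.45, 0.64 and 0.00 for fatty acids and -0.54, -0.29 and -0.24 for ribosome biogenesis, in numbers 1, 2 and 3. The sign was the same in each number for 3 of the lists, and fatty acid genes were at 0.00 in number 3. The lists were picked for their lean in these same libraries, so this does not test the lean.

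The remaining lists had medians between -0.20 (FLT3 and RAS-ERK outputs) and 0.20 (TCA cycle). Negative medians stood at -0.19 for 36 DNA replication genes (13 positive), -0.14 for 33 lysosome and autophagy genes (12 positive), -0.12 for 24 nucleotide and one-carbon genes (7 positive), -0.10 for 17 NF-kB genes (6 positive), -0.09 for 13 STAT5 outputs (4 positive) and -0.09 for 20 p53 targets (8 positive). Glycolysis had -0.06 with 7 of 22 positive, and the BCL2 family -0.02 with 8 of 17. The 31 proteasome genes had 0.10 with 23 positive, heat shock and folding 0.11 with 18 of 22, the interferon response 0.08 with 11 of 21, and endoplasmic reticulum chaperones 0.04 with 14 of 26. The 35 genes of the mTORC1 and PI3K pathways themselves had -0.01 with 17 positive, and the 34 mitochondrial ribosome genes 0.02 with 19. A list of 17 translation factors and other genes had 0.05 with 9. Its messages start with a pyrimidine tract, and mTORC1 is known to control such messages. The lowest and highest members of this list, VIM (-0.62) and SNHG1 (0.50), are not translation factors. The 59 nuclear-encoded OXPHOS genes had a median of 0.15 with 44 positive, the 45 cytosolic ribosome genes 0.17 with 38 positive, and the 30 genes of G2 and mitosis 0.17 with 27 positive. For the 13 mitochondrially encoded messages the median was 0.74 in libraries numbered 1 and -0.70 and -0.46 in those numbered 2 and 3, so its sign followed the replicate number that carried the high mitochondrial share.

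In heavy polysome RNA 1 gene passed the test for the interaction (0.00773% of 12939, edgeR), with 554 positive (4.28%) and 412 negative genes (3.18%) at an unadjusted p under 0.05. It was ADM2, at 27.3, 16.4 and 20.7 CPM under vehicle, 5.67, 4.79 and 4.03 under quizartinib, 1.65, 3.22 and 2.39 under everolimus and 5.88, 3.16 and 4.78 under the combination. Vehicle was the only arm above 10 CPM, quizartinib lay above everolimus, and the combination overlapped both. The interaction was 3.07 ± 0.55 (SE), adjusted p = 0.0345: the summed changes gave 0.552 CPM and the combination held 4.53 CPM. The value was 3.63 ± 0.76 (SE) without everolimus polysome libraries 2 and 3, which left 1 everolimus library that was assumed to vary like the other groups, and the adjusted p was then 0.423. Leaving out the libraries of 1 replicate of 1 arm at a time kept the value between 2.82 and 3.33 but ended the call for 8 of 12: vehicle 1 (adjusted p = 0.0907), quizartinib 1 (0.0938), 2 (0.0687) and 3 (0.0973), everolimus 2 (0.0618) and 3 (0.124), and the combination 1 (0.196) and 3 (0.0907). ADM2 kept its direction in all 23 alternatives tried, with adjusted p from 7.25e-06 to 0.423.

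Among the next smallest p-values were messages of aminoacyl-tRNA synthetases, the enzymes that load amino acids onto tRNA and known ATF4 targets. All 17 measured synthetases had a positive interaction in heavy polysome RNA, with a median of 0.62 beside 0.01 for all genes, 12 of 17 in input RNA with a median of 0.17, and 0 called in either. All 3 differences lay above in 9 members, where this held for 6.27% of all genes, and below in 0, where it held for 4.99%. Without the 2 everolimus libraries that held epithelial counts 16 of 17 were positive and the median was 0.62. CARS (cysteine) was at 114, 87.7 and 98.3 CPM under vehicle, 107, 77.9 and 106 under quizartinib, 55.2, 55.5 and 54.7 under everolimus and 148, 112 and 147 under the combination. Everolimus alone was low, and the combination overlapped vehicle and lay above quizartinib. Its interaction was 1.34 ± 0.27 (SE), adjusted p = 0.107, and 1.34 ± 0.36 (SE) without the 2 libraries. MARS (methionine) was at 413, 213 and 234 CPM under vehicle, 145, 86.1 and 99.6 under quizartinib, 100.4, 98.6 and 94.4 under everolimus and 152, 92.5 and 104 under the combination. Vehicle was above the other 3 arms, which overlapped, and within each replicate number the combination was above quizartinib. The interaction of MARS was 1.63 ± 0.38 (SE), edgeR adjusted p = 0.217, and 1.59 ± 0.50 (SE) without the 2 libraries. Its exons overlap DDIT3 and ARHGAP9 on the other strand. YARS (tyrosine) had 0.72 ± 0.22 (SE) and GARS (glycine) 0.52 ± 0.29 (SE). CARS lies at chr11:3000922-3057613, minus strand, and MARS at chr12:57475445-57517569, plus strand.

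The start regions of these genes are shown because the members had the same sign and several are known to be read by ATF4, which binds a CARE element (C/EBP-ATF response element). The 300 bases from 250 before to 50 after the gene start (RefSeq, GRCh38.p14) were found for 14 of the 17 synthetases and searched on both strands for the letters TGATGNAA. They were present in 6 of the 14 (AARS1, CARS1, IARS1, MARS1, NARS1 and TARS1), and in 1003 of all 27305 start regions (3.67%). In the ATF4 list 3 of 22 start regions held them (CHAC1, SLC3A2 and SLC7A1), and that of ADM2 held none. The 4 below are read 5′ to 3′ on the strand of the gene, with the match in capitals, and all 4 matches are on the opposite strand. AARS (AARS1) lies at chr16:70289457-70289756 and was chosen after its values were seen, with a polysome interaction of 1.71 ± 0.48 (SE), the largest of the list. CARS (CARS1) lies at chr11:3057374-3057673, MARS (MARS1) at chr12:57487818-57488117, and CHAC1 at chr15:40953221-40953520.
AARS1: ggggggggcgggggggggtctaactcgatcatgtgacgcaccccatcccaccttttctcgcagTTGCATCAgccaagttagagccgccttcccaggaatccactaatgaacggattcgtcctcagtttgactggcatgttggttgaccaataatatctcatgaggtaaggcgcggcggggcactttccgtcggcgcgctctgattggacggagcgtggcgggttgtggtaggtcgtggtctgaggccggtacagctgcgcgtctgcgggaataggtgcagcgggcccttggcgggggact
CARS1: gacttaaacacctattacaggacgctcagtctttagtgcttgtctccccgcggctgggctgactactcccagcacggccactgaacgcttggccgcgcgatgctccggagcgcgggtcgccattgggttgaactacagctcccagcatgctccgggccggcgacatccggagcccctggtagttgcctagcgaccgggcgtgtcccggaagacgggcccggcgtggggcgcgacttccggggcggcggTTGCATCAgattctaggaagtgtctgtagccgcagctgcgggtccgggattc
MARS1: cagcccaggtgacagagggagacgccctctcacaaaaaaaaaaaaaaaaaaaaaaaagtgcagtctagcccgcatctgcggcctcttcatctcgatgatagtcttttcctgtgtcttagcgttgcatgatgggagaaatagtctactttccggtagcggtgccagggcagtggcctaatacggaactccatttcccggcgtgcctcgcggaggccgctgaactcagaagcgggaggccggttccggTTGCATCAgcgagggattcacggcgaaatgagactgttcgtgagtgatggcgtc
CHAC1: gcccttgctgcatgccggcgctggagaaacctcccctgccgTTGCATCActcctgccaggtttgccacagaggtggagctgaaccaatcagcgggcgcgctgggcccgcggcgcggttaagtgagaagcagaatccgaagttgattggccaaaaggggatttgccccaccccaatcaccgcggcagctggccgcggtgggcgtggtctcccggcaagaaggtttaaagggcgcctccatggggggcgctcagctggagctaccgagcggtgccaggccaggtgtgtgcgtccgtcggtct
The match covers bases 64 to 71 of the AARS1 window, 249 to 256 of CARS1, 247 to 254 of MARS1 and 42 to 49 of CHAC1. Base 251 is the gene start in RefSeq. For CARS, MARS and CHAC1 this start lies inside the gene's GENCODE position and not at its outer end. The whole MARS1 window lies inside that position. A match describes the letters and does not show that a factor is bound. The letters TCACNCCAC, a form of the sterol element that SREBP binds, were in 313 start regions (1.15%), in 1 of 17 of the cholesterol list (SREBF2) and in 0 of 11 of the fatty acid list.

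ACAT2 in heavy polysome RNA was at 210.0, 229 and 184 CPM under vehicle, 72.8, 121 and 108 under quizartinib, 75.03, 83.5 and 76.2 under everolimus and 71.9, 84.2 and 78.03 under the combination. Vehicle was the high arm, and the 3 drug arms overlapped. Within each replicate number the combination was below quizartinib. Its interaction was 1.04 ± 0.22 (SE), adjusted p = 0.107, and 1.10 ± 0.29 (SE) without the 2 everolimus libraries. The cholesterol list had 21 of 23 positive interactions with a median of 0.52, the fatty acid list 11 of 12 with 0.80, the ATF4 list 24 of 28 with 0.49 and the TCA cycle list 17 of 18 with 0.49. Without the 2 libraries these medians were 0.54, 0.90, 0.59 and 0.41. SLC2A5 had 1.14 ± 0.31 (SE) and DDIT4 0.97 ± 0.34 (SE), the same sign as in input RNA. Over 24 alternatives of processing and samples, MTHFD2, MTFR2, RGS16, DENND1C and ZNF490 also kept their input sign in heavy polysome RNA. CIAO2A did not, at -0.40 to -0.02, nor did AC145207.3, at 0.04 to 0.47. The ranges of ITGB1BP1, RAD1 and RPS6KA4 there held both signs.

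On the negative side SNX10, of endosomal sorting, was at 2.85, 1.99 and 3.11 CPM under vehicle, 6.53, 2.90 and 3.25 under quizartinib, 9.48, 8.36 and 8.39 under everolimus and 3.97, 2.22 and 3.72 under the combination. Everolimus was above all other libraries, with an interaction of -2.07 ± 0.44 (SE), adjusted p = 0.107, and -2.19 ± 0.52 (SE) without the 2 libraries. UBE2W, a ubiquitin-conjugating enzyme, was at 2.63, 3.62 and 2.90 CPM under vehicle, 10.2, 7.20 and 7.54 under quizartinib, 7.99, 7.19 and 7.39 under everolimus and 9.56, 8.29 and 7.66 under the combination. Vehicle was the low arm and the drug arms overlapped, with an interaction of -1.27 ± 0.27 (SE), adjusted p = 0.107. OLIG1 had -1.18 ± 0.28 (SE) and TNFSF14 -1.70 ± 0.46 (SE). DSTN, an actin-severing protein, was at 12.2, 17.6 and 12.9 CPM under vehicle, 14.5, 21.7 and 18.6 under quizartinib, 18.4, 32.4 and 41.3 under everolimus and 10.6, 19.4 and 13.9 under the combination. Its everolimus values moved with the epithelial counts, lowest in library 1 and highest in library 3, and its interaction of -1.43 ± 0.34 (SE) was -0.69 ± 0.37 (SE) without libraries 2 and 3.

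**Figure D4:**
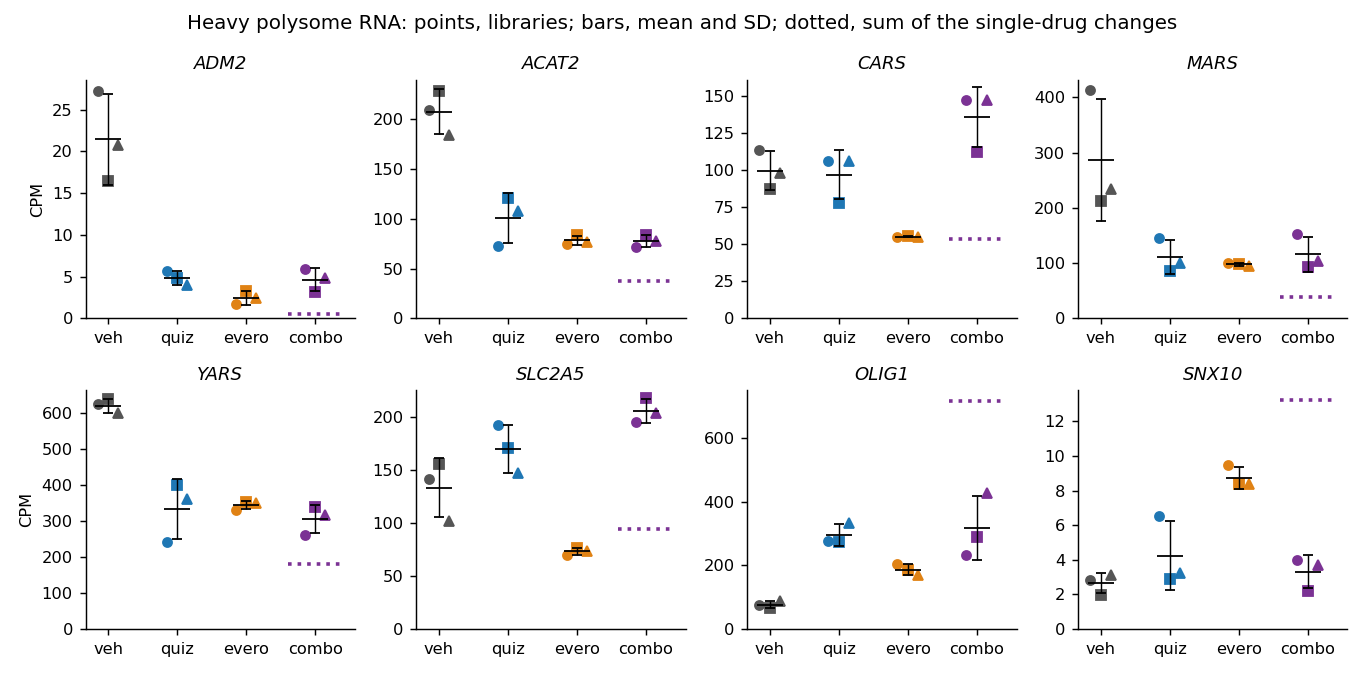
CPM in the 12 heavy polysome libraries for 8 genes, drawn as for input RNA (points, libraries; bars, mean and SD of 3; dotted line, the level from the summed log2 changes). ADM2, CARS and MARS lie above the dotted line under the combination (4.53 against 0.552 CPM, 135 against 53.4 CPM and 114 against 38.4 CPM), and SNX10 and OLIG1 below it (3.27 against 13.2 CPM and 307 against 716 CPM).

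The interaction in heavy polysome RNA relative to input, which asks whether the share of a message on heavy polysomes departed from the sum, was called for 0 of 12939 genes (edgeR, smallest adjusted p = 1), with 317 positive (2.45%) and 170 negative genes (1.31%) at an unadjusted p under 0.05 and 0 by limma voom and by DESeq2. Its median SE was 0.60, and the 95% interval lay within 1 log2 unit of 0 for 1091 genes (8.43%). The 17 synthetases had 16 positive values with a median of 0.51, the 31 ribosome biogenesis genes 23 with 0.59, and the 59 OXPHOS genes 13 with -0.28. The ribosome biogenesis list thus had a median of -0.34 in input RNA and 0.17 in heavy polysome RNA, and OXPHOS 0.15 and -0.18. Without everolimus polysome libraries 2 and 3 the relative medians were 0.46 for synthetases (15 positive), 0.54 for ribosome biogenesis (23) and -0.21 for OXPHOS (16). The heavy polysome medians were then 0.18 for ribosome biogenesis and -0.07 for OXPHOS. Neither OXPHOS sign was the same in each replicate number: the medians in numbers 1, 2 and 3 were -0.07, -0.20 and 0.49 in input RNA and -0.55, 0.12 and -0.12 in heavy polysome RNA, and over the 24 alternatives they ran from -0.12 to 0.26 and from -0.37 to 0.03. Ribosome biogenesis had 0.05, -0.05 and 0.18 in heavy polysome RNA by number. Scaling by library size alone moved the median of all genes in heavy polysome RNA to -0.16 and turned the sign of ribosome biogenesis there, to -0.03. By the naming rule, CES1, a carboxylesterase, had 1.504 ± 0.44 (SE), and NCKAP1L (HEM1), of the actin-regulating WAVE complex, 1.17 ± 0.35 (SE). STIP1, a co-chaperone of HSP70 and HSP90, had 0.98 ± 0.30 (SE). NDUFA1, of respiratory complex I, had -1.41 ± 0.37 (SE), UBE2W -1.51 ± 0.38 (SE) and DSTN -1.97 ± 0.47 (SE). These values include everolimus polysome libraries 2 and 3, where DSTN moved with the epithelial counts.

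**Figure D5:**
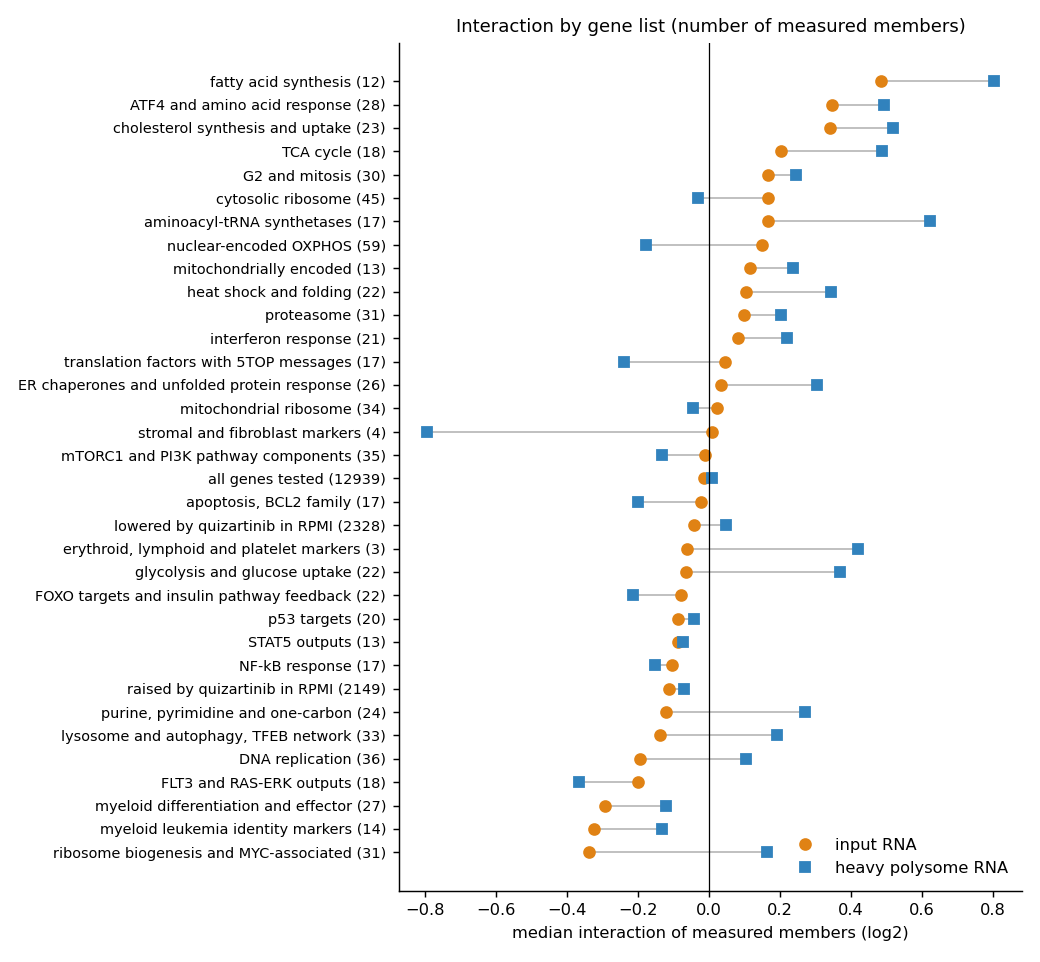
Median interaction (log2) of the measured members of each gene list in input RNA (circles) and heavy polysome RNA (squares), with the number of measured members in brackets and all genes tested as a row of its own. Fatty acid, ATF4 and cholesterol lists are highest in input RNA (0.49, 0.35 and 0.34), and ribosome biogenesis is lowest (-0.34) with 0.17 in heavy polysome RNA, a sign that turned to -0.03 when scaled by library size alone.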

How the data were processed

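Poly(A) RNA of total lysates (input) and of heavy polysome fractions of MOLM-13 cells was sequenced in 42 libraries, 3 for each of 14 groups. The authors trimmed paired reads with BBDuk, aligned them with STAR 2.6.0a to the human genome hg38 with Ensembl annotation and deposited raw counts per gene, and whether counting used strand is not given in the sources used here. Groups were taken from the sample labels. Rows sharing a gene name were summed, and genes averaging 1 count and 1 CPM or more over all libraries were kept (12939 genes, 99.77% of counts). Counts were fitted with edgeR 4.0.16 (R 4.3.3; TMM factors, quasi-likelihood test, Benjamini-Hochberg adjustment over all genes, called at adjusted p under 0.05) with 14 group means, and the contrasts were tested in that model. CPM values are scaled by TMM. The common coefficient of variation was 0.2792.

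The interaction was tested in input RNA, in heavy polysome RNA and in their difference, beside each drug's effect with and without the other. limma 3.58.1 voom, DESeq2 1.42.0, other scalings, filters and sample sets were alternatives, and 3 of them were chosen after seeing the data. The steps were tested on counts simulated with planted interactions and the same spread in every arm, which the everolimus libraries did not have. No result here rests on them. Gene lists, named genes and samples were chosen with earlier results of these data known. Named genes were, for input RNA, 8 of each sign with the smallest p at a mean of at least 10 CPM, for the other 2 interactions 3 of each sign, any gene called below 10 CPM where 5 or fewer were, a list of fixed genes, and up to 2 members of each list. The text gives part of these, 2 named genes are not reported here, and genes outside the rule are marked as chosen after their values were seen.

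Replicate numbers in the labels were checked for pairing. Across genes, deviations from the group mean of same-numbered libraries correlated at 0.284 to 0.658 in input RNA and 0.153 to 0.715 in heavy polysome RNA in every pair without everolimus, and at -0.059 to 0.0023 and -0.238 to 0.103 in pairs with it. The numbers were therefore read as pairing comparisons without everolimus libraries only. Depth was 19439370 to 35979303 counts in the hBMSC-CM input libraries and 21459383 to 36394677 in the hBMSC-CM heavy polysome libraries. Gene positions are from GENCODE (GRCh38), and start regions from RefSeq (GRCh38.p14), matched by name for 84 of 110 named genes.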

Additional observations from a re-analysis of the deposited data

Results flagged for a closer look

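The interaction of ADM2 in heavy polysome RNA was 3.07 on the log2 scale (edgeR adjusted p = 0.0345). It was picked out because the effect of quizartinib in the presence of everolimus differed from its effect without everolimus by a test of the difference itself. ADM2 had 621, 363 and 486 counts in the vehicle polysome libraries, 138, 127 and 108 under quizartinib, 33, 108 and 74 under everolimus and 160, 87 and 153 under the combination. The groups of 3 samples are too small for a check of single outlying samples.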

How the results depend on the processing

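Of 4217 values of single genes and list medians under the alternatives, 218 changed sign, none of them of a called value. In input RNA the list medians kept their sign in all 24 alternatives for the ATF4 list (0.17 to 0.45), cholesterol (0.27 to 0.46), fatty acids (0.39 to 0.52), synthetases (0.09 to 0.24) and ribosome biogenesis (-0.48 to -0.22), and that of OXPHOS changed sign in 2 and of the cytosolic ribosome in 1. In heavy polysome RNA the synthetase median ran from 0.38 to 0.84. Numbers of genes called are given here, and the cause of each change was not tested. For the interaction in input RNA (0 called) no filter on low counts gave 8 and DESeq2 gave 2, and every omission of 1 replicate gave 0. For heavy polysome RNA (1 called) no filter gave 31, the stricter filter 0, everolimus libraries as 1 sample 2 (IGFBP4 and AKR1C1, named after their values were seen), only the hBMSC-CM libraries 0, DESeq2 11, and leaving out everolimus polysome 2 and 3 gave 0. IGFBP4 and AKR1C1 were called with everolimus polysome libraries 2 and 3, which held the epithelial counts, in the pooled sample. Whether those counts carry the 2 calls was not tested. Leaving out 1 replicate gave 0 to 7, with 7 without everolimus 1 and 2 without vehicle 3. It gave 0 without any quizartinib replicate, everolimus 2 or 3, or combination 1 or 3. For polysome relative to input (0 called) no filter gave 9, and leaving out 1 replicate gave 0 to 2, with 2 without everolimus 1.

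For quizartinib without everolimus (1591), only the hBMSC-CM libraries gave 3077, and leaving out 1 replicate 929 to 1615, with 929 without vehicle 3, 984 without quizartinib 1 and 932 without quizartinib 2. For quizartinib under everolimus (1437), everolimus as 1 sample gave 274, only hBMSC-CM 2556, and leaving out 1 replicate 803 to 1572, with 836, 869 and 803 without everolimus 1, 2 and 3, and 851 and 941 without combination 1 and 2. For everolimus without quizartinib (53), no filter gave 96, everolimus as 1 sample 0, only hBMSC-CM 267, limma voom 105 and DESeq2 164. Leaving out 1 replicate gave 9 to 64, with 23 and 16 without vehicle 1 and 3, and 13, 11 and 9 without everolimus 1, 2 and 3. For everolimus under quizartinib (31), library size alone gave 18, no filter 80, everolimus as 1 sample 7, only hBMSC-CM 66, DESeq2 93, and without everolimus polysome 2 and 3 it was 19. Leaving out 1 replicate gave 3 to 74, with 74, 3 and 4 without quizartinib 1, 2 and 3, 14, 19 and 19 without everolimus 1, 2 and 3, and 4 and 19 without combination 1 and 2.

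When replicate numbers entered as a block, the interaction was called for 0 genes in input RNA, 22 in heavy polysome RNA and 0 for polysome relative to input, and the drug effects for 2678, 2320, 244 and 154 genes in the order above. With a replicate block within each fraction these counts were 1, 465 and 1, and 3803, 3290, 675 and 380. With a replicate block outside everolimus they were 50, 1337 and 497, and 4818, 4334, 1583 and 870, but this block takes the everolimus libraries to sit at the mean of the 3 numbers, so these counts understate the error. Since the everolimus libraries did not follow the numbers, the blocked interactions rest on numbers that do not pair that arm. RGS16 in input RNA passed without a filter, with the block within each fraction and with the block outside everolimus, and in no other alternative. The call of ADM2 in heavy polysome RNA was lost with everolimus as 1 sample (adjusted p = 0.356), with only the hBMSC-CM libraries (0.14) and in the cases given above (edgeR).

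Depth and number limit genes with few counts most: CHAC1 had 0 to 24 counts in the drug-treated input libraries.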
